A study of Homo sapiens with 6 samples.

Results

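The 50 genes described here encode enzymes and transporters of glycolysis, lactate handling, pyruvate entry into mitochondria, the citrate cycle and the pentose phosphate pathway. They were taken from a list of symbols, matched through Ensembl identifiers to a deposited table of 58395 genes, and all 50 were found. The study profiled polyadenylated RNA from melanospheres, the floating spheres that M14 cells form when they cannot attach. M14 is an established cell line catalogued as human melanoma. The spheres were taken apart mechanically, stained for CD20 and flow sorted into 3 CD20-positive and 3 CD20-negative libraries. Both groups come from the same line and the same culture format, carry no stated treatment or genetic change, and differ, per the labels, by the sort. The single comparison was CD20-positive against CD20-negative cells.

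Glycolysis splits glucose into pyruvate in the cytosol, with hexokinase, phosphofructokinase and pyruvate kinase as its regulated steps. Pyruvate is then either reduced to lactate, which leaves the cell through monocarboxylate transporters, or carried into mitochondria, where pyruvate dehydrogenase makes acetyl-CoA for the citrate cycle. The pentose phosphate pathway branches off glucose 6-phosphate and supplies NADPH and ribose. In tumours, glycolytic enzymes are often highly expressed, and many of them are known targets of hypoxia-inducible factors, which bind DNA at sites with the core ACGTG.

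The sequences below are upstream windows of 4 members, shown because ENO2 and PC were the members called in the comparison that pairs same-numbered libraries, and because LDHA and PGK1 are textbook hypoxia-induced genes of the same pathway. They are RefSeq sequences of the GRCh38.p14 build, written 5' to 3' on the strand of the gene, with position -1 next to the annotated start. Capitals mark ACGTG or its reverse complement CACGT, and CACGTG was counted once on each strand. The ENO2 window lies at chr12:6914330-6914579 on the plus strand, with 1 match at position -118. The PC window lies at chr11:66958384-66958633 on the minus strand, with matches at positions -184 and -163, and it is the only 1 of 3 annotated PC windows with a match. The LDHA stretch covers positions -200 to -61, at chr11:18394363-18394502 on the plus strand, from the only 1 of its 2 windows with a match. The PGK1 stretch covers positions -220 to -160, at chrX:78104028-78104088 on the plus strand, with matches at positions -202 and -183.
ENO2: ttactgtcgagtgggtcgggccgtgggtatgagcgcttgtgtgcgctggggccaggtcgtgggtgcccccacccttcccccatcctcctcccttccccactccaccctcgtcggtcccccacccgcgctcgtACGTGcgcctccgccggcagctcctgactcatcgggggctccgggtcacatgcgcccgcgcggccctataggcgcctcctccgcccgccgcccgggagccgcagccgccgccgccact
PC: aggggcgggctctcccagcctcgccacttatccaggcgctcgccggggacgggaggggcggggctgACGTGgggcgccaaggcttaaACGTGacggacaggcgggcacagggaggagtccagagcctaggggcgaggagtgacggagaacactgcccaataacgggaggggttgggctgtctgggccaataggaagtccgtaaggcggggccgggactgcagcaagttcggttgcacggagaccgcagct
LDHA: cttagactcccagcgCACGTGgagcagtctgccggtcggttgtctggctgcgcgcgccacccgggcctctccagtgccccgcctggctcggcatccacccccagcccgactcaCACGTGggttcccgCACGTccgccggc
PGK1: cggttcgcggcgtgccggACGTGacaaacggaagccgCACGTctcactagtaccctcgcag

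Upstream windows of 250 bases were matched for 47 of the 50 members, all but SLC16A1, PDP1 and OGDH. At least 1 window held the motif on either strand in 22 of the 47 members (46.8%), against 21.7% of 27305 genes. Counted by window, it was found in 25 of 82 member windows (30.5%) and in 18.5% of 35116 windows. Of 17 members listed as hypoxia-induced from general knowledge, 12 held a match (70.6%), as did 10 of the other 30 (33.3%). Counted by window, it was 15 of 36 (41.7%) against 10 of 46 (21.7%). The 17 were listed as known hypoxia-induced genes, for which this motif is typical, so no conclusion is drawn from the difference. A match is a description of these letters, not a binding site or a cause, and members with several annotated starts had more windows in which to find it.

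The libraries held 15651172 to 17915936 recovered fragments. MS4A1, the gene for CD20, measured 0.225, 0.263 and 0.403 FPKM in the CD20-negative libraries and 1.24, 0.966 and 1.28 FPKM in the CD20-positive libraries, without overlap and at a low level in both. FPKM counts fragments by exon length in kilobases and by a library size, which here was not the fragment total. The size read from the values was 1.88e+07 for CD20-negative replicate 1, with 17564536 recovered fragments. For CD20-positive replicate 1 it was 1.51e+07, with 17479732 fragments. Total FPKM was 276912 to 295179 in CD20-negative and 338125 to 512113 in CD20-positive libraries. Transcripts encoded by mitochondrial DNA took 4.25 to 5.73% of fragments in the CD20-negative and 11.9 to 20.6% in the CD20-positive libraries, and cytosolic ribosomal protein genes took 7.13 to 7.46% against 2.86 to 4.57%. Replicate 1 of both groups stood apart from replicates 2 and 3. Of 8 melanocytic markers, SOX10, MLANA, TYR, TYRP1, DCT and S100B reached at most 0.262 FPKM in any library, MITF measured 1.72 to 2.34 FPKM and PMEL 8.73, 19.2 and 17.0 FPKM in CD20-negative and 14.8, 29.5 and 33.8 FPKM in CD20-positive libraries, so most defining markers of the labelled lineage were near 0. The 8 summed to 11.1 to 21.4 FPKM in CD20-negative and 17.4 to 35.7 FPKM in CD20-positive libraries. The 7 B-lineage markers summed to 2.37 to 3.64 FPKM in CD20-negative and 4.60 to 4.89 FPKM in CD20-positive libraries, with PTPRC and PAX5 at 0.0570 FPKM or less. The summed levels in the CD20-negative and CD20-positive libraries were 322 to 447 and 389 to 488 FPKM for 6 epithelial markers, led by KRT8 and KRT18, and 25.6 to 34.2 and 36.4 to 50.6 FPKM for 5 fibroblast markers, led by COL1A1 with COL1A2, DCN and LUM near 0. With same-numbered libraries paired, as for ENO2 and PC below, PMEL rose (limma log2 change 0.75, adjusted p = 0.0117), as did the fibroblast marker PDGFRB (0.58, adjusted p = 0.0286). The part of these shares and markers in the results below was not tested. Separate cultures are not stated for the replicates, and a p-value here therefore reflects sample-to-sample spread that may be only technical. In sorted bulk samples, fewer cells of a kind and less RNA per cell cannot be told apart.

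Glycolytic and lactate enzymes were among the most abundant transcripts in both fractions. On the FPKM scale, which is per length, 48 of the 50 members averaged 1 FPKM or more across the libraries, 39 reached 10 FPKM and 8 reached 200 FPKM. Those 8 were GAPDH (mean 691 FPKM), ENO1 (408), LDHB (301), PGK1 (291), TPI1 (286), LDHA (285), PGAM1 (258) and PKM (245), with ranks 27 to 87 among 19892 protein-coding genes. The pentose phosphate enzyme TKT followed at 122 FPKM, rank 210. The most abundant member of the mitochondrial steps, PDHA1, measured 60.9 FPKM, rank 538. The lowest tested members were ME2 at 2.73 and PDP1 at 2.42 FPKM.

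**Figure D1:**
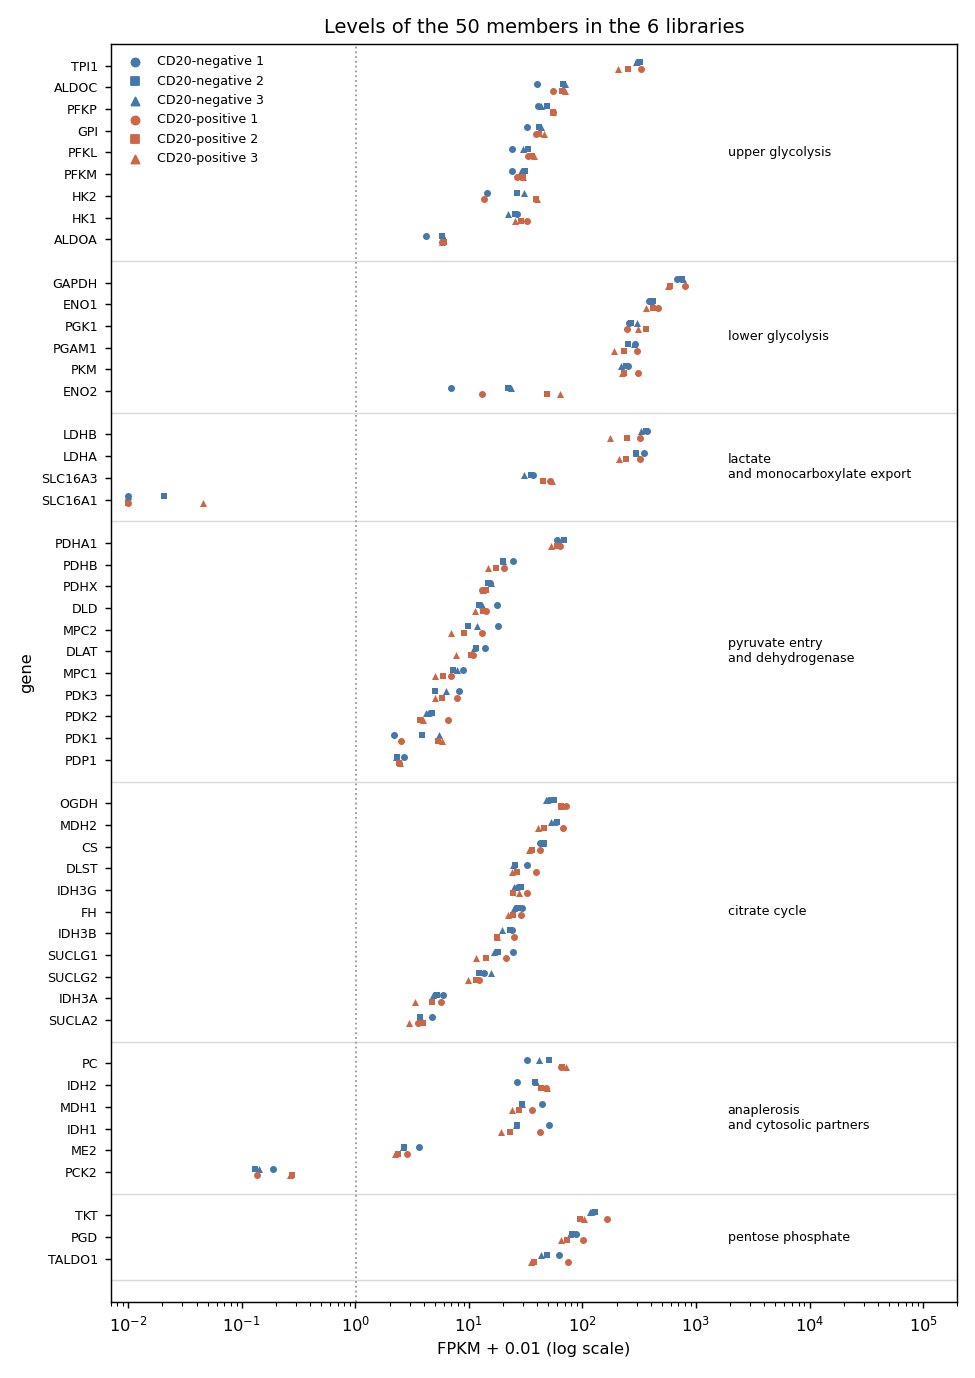
FPKM of the 50 members in each of the 6 libraries, plotted as FPKM + 0.01 on a log axis and grouped by pathway step, with the symbol giving the replicate and the colour the group. The dotted line marks 1 FPKM, the mean required for testing, and only SLC16A1 and PCK2 lie below it.

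The transporter SLC16A1 and the enzyme PCK2 had means under 1 FPKM and were not tested. SLC16A1, which encodes the monocarboxylate transporter MCT1, had 0, 1 and 0 fragments in the CD20-negative and 0, 0 and 3 in the CD20-positive libraries, at or under a floor of 3 fragments, which is 0.0285 to 0.0374 FPKM. No fold was computed for it. PCK2, the mitochondrial phosphoenolpyruvate carboxykinase, measured 0.178, 0.120 and 0.133 FPKM in CD20-negative and 0.126, 0.268 and 0.257 FPKM in CD20-positive libraries, from 8 to 18 fragments each. ALDOA, the main aldolase of most tissues, had a mean of 5.57 FPKM, and 42.3% of its annotated exon length is shared on the same strand with ENSG00000285043, which had a mean of 1.44 FPKM. Its level is therefore uncertain.

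The summed level of the 50 members did not separate the fractions. CD20-negative libraries summed to 4070 ± 38.5 FPKM and CD20-positive libraries to 3877 ± 525 FPKM (SD, n = 3), and the ranges overlapped. As a share of all FPKM of nuclear genes, the members held 1.75 ± 0.0631% and 1.78 ± 0.0735%.

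Gene by gene over all 6 libraries as deposited, 0 members passed the threshold without pairing and 2 passed when same-numbered libraries were paired. The test was limma on log2(FPKM + 1), CD20-positive minus CD20-negative, over 13155 genes averaging 1 FPKM or more, with p-values adjusted by Benjamini-Hochberg and called under 0.05. Without pairing, 0 of 48 tested members passed, and 1 gene of all tested did (0.0076%). At an unadjusted p under 0.05, the unpaired limma fit held 4 members, against 9.2% of all genes. The labels do not say what same-numbered libraries share. The pairing is therefore an assumption, and for replicates 2 and 3 it is not settled. With the replicate number as a block, ENO2 and PC rose and 0 members fell, against 767 genes called in all (5.83%), 420 higher (3.19%) and 347 lower (2.64%). The members' share of calls was thus near that of all genes.

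Over the 48 tested members the median log2 change was -0.08, with 21 above and 27 below 0, beside a median of 0.00 over all genes. The CD20-positive libraries lay entirely above the CD20-negative libraries in 6 members (8.87% of all genes tested did so), namely PFKL, PFKP, SLC16A3, OGDH, IDH2 and PC. They lay entirely below in 5 members (6.14% of all genes), namely LDHB, MPC1, DLAT, PDHX and CS. In all 3 same-numbered pairs, 9 members were higher and 15 lower, against 21.8% and 20.4% of all genes. The 15 glycolytic members had a median log2 change of 0.13, with 12 above 0. By pair their median was 0.26, -0.02 and 0.03 in replicates 1, 2 and 3, so it was near 0 outside replicate 1. Their summed level was 2502 ± 99.3 FPKM in CD20-negative and 2459 ± 242 FPKM in CD20-positive libraries (SD, n = 3), with overlap. The 22 members of pyruvate entry and dehydrogenase and of the citrate cycle had a median of -0.15, with 16 below 0. By pair their median was -0.06, -0.12 and -0.24. That set leaves out the mitochondrial enzymes PC, IDH2 and ME2, grouped with another step, which had log2 changes of 0.71, 0.43 and -0.19. By pair, the median over the 48 members was 0.09 in replicate 1, -0.08 in replicate 2 and -0.17 in replicate 3. With the libraries scaled instead to their total FPKM, which includes the mitochondrially encoded genes, the median of all genes moved to -0.41, and 18 of the 48 members turned sign, so the directions given here are relative to the median gene.

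**Figure D2:**
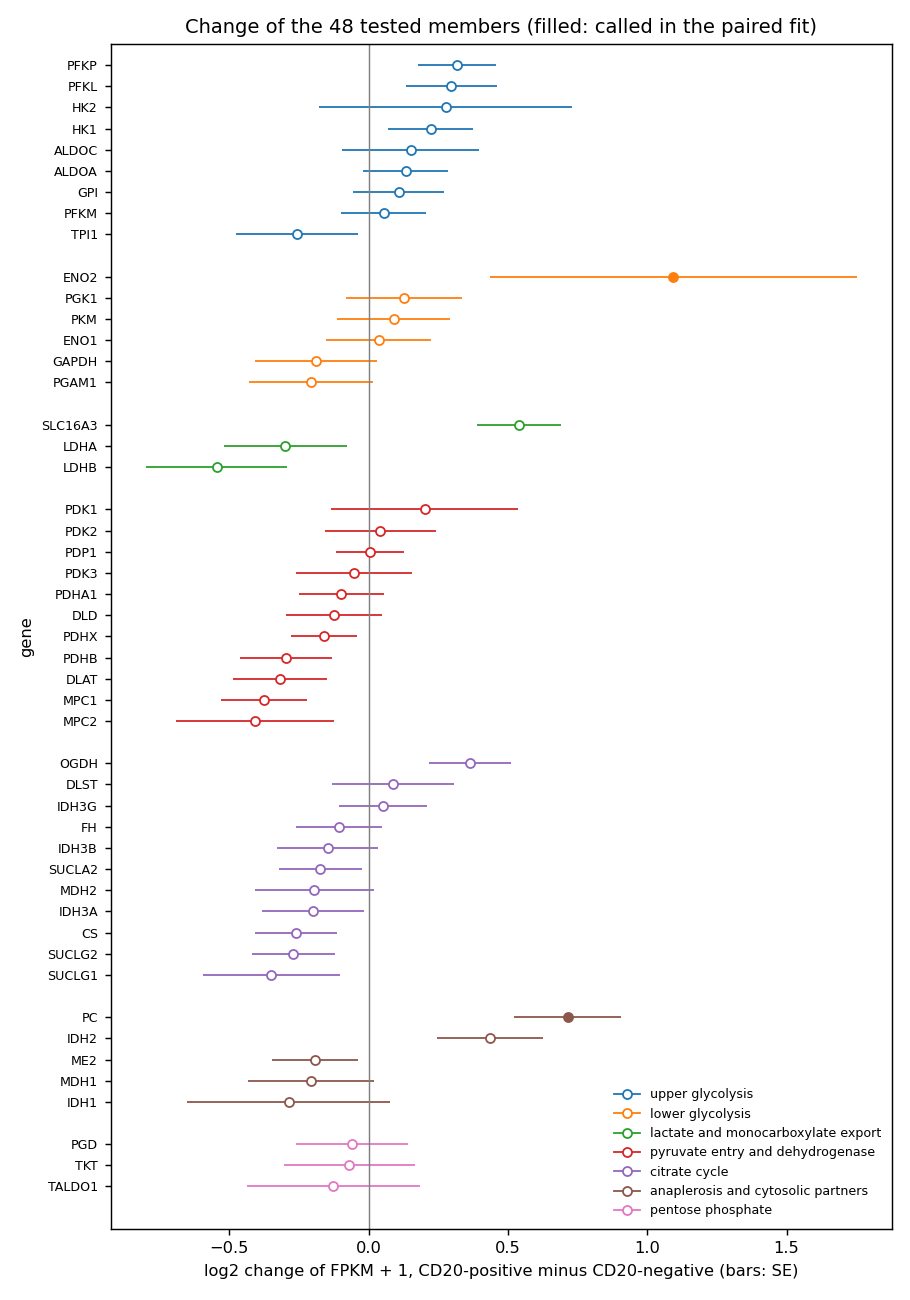
Log2 change of FPKM + 1, CD20-positive minus CD20-negative, for the 48 tested members, with bars of 1 standard error from the unpaired limma fit and colours by pathway step. Filled points are ENO2 and PC, the 2 members called with the replicate block, at 1.09 and 0.71.

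In upper glycolysis, which turns glucose into triose phosphates, 8 of 9 members had log2 changes above 0, with a median of 0.15, and 0 passed in either limma fit. PFKP, the platelet-type phosphofructokinase, measured 41.0, 48.3 and 42.8 FPKM in CD20-negative and 55.1, 54.6 and 55.2 FPKM in CD20-positive libraries. PFKL, the liver type, measured 24.0, 33.3 and 29.7 FPKM against 33.3, 36.1 and 37.3 FPKM. Neither overlapped between groups, although the lowest CD20-positive and the highest CD20-negative value of PFKL were nearly equal. The log2 change was 0.32 for PFKP (SE 0.141, limma adjusted p = 0.552) and 0.30 for PFKL (SE 0.163, adjusted p = 0.632). The muscle type PFKM measured 23.9, 31.1 and 28.5 FPKM against 26.4, 29.8 and 30.1 FPKM, with overlap.

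Hexokinases, which trap glucose in the cell, were represented by HK1 and HK2 at similar means. HK1 measured 26.6, 25.4 and 22.0 FPKM in CD20-negative and 32.5, 28.9 and 25.6 FPKM in CD20-positive libraries, higher in each pair but with overlap (log2 change 0.22, SE 0.153). HK2, which like HK1 is among the members listed as hypoxia-induced, measured 14.5, 26.7 and 30.3 FPKM against 13.6, 39.0 and 40.0 FPKM. Replicate 1 was the low library in both groups. TPI1, triose phosphate isomerase and the most abundant member of this step, measured 308, 323 and 297 FPKM against 328, 253 and 207 FPKM, a log2 change of -0.26. It was the only 1 of the 9 with a change below 0. GPI, ALDOA and ALDOC had log2 changes of 0.11 to 0.15, with overlapping groups.

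In lower glycolysis, which harvests ATP on the way to pyruvate, ENO2 rose in the paired comparison and the abundant enzymes did not separate the groups. ENO2 (ENSG00000111674, GRCh38 chromosome 12, 6913745 to 6923698, plus strand) encodes gamma enolase, the neuron-type isozyme whose upstream window is printed above. It measured 7.01, 22.2 and 23.5 FPKM in the CD20-negative and 13.0, 48.8 and 62.8 FPKM in the CD20-positive libraries, from 564 to 4252 fragments. The groups overlapped, because replicate 1 was low in both, but each CD20-positive library was above its same-numbered partner, by 1.85, 2.19 and 2.67 times. The log2 change was 1.09, with SE 0.659 and limma adjusted p = 0.657 without pairing, and SE 0.152 and adjusted p = 0.00358 with the block. Without both libraries of replicate 1, the log2 change was 1.24 (limma adjusted p = 0.000418, no block). The paired call was lost without replicate 2 (log2 change 1.09, adjusted p = 0.0861, where 1 of 13155 genes passed) and after correction for transcript length and GC content (log2 change 1.02, adjusted p = 0.0544).

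**Figure D3:**
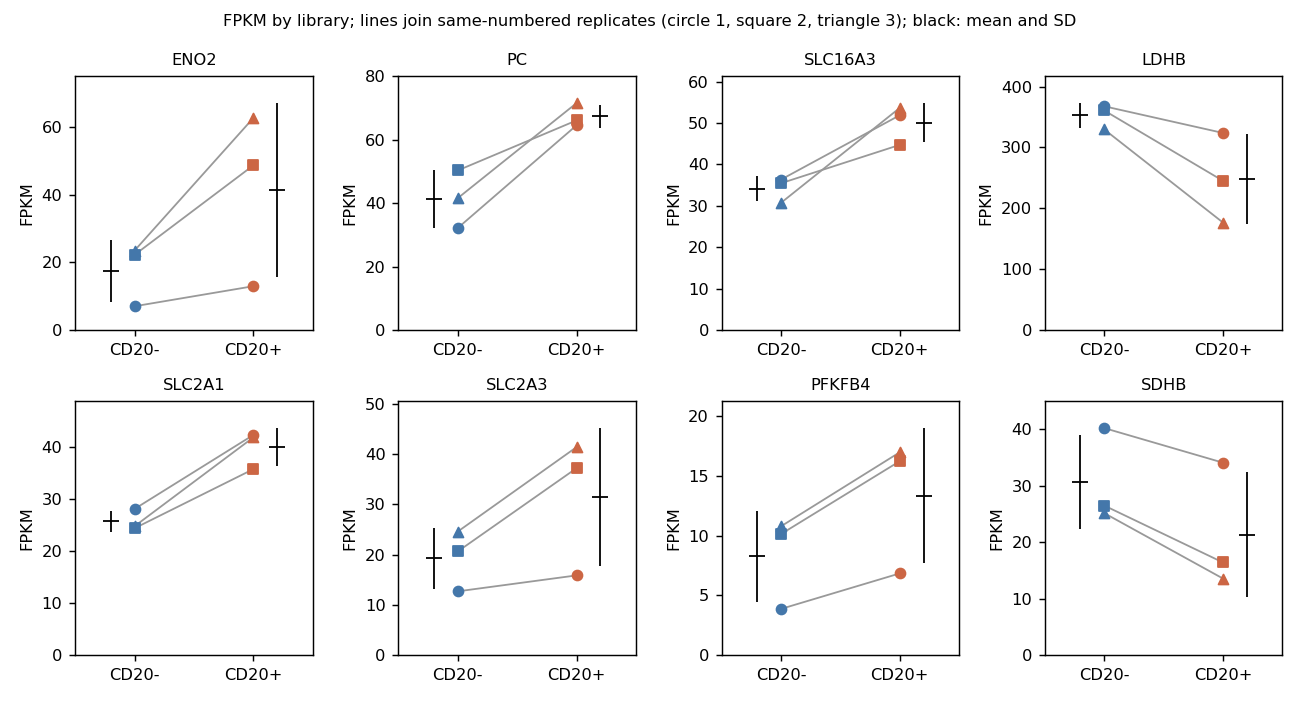
FPKM of ENO2, PC, SLC16A3 and LDHB (upper panels) and of the related genes SLC2A1, SLC2A3, PFKFB4 and SDHB (lower panels) in each library, with lines joining same-numbered replicates, bars for the mean and SD (n = 3), and axes from 0. ENO2 lay between 7.01 and 23.5 FPKM in CD20-negative and between 13.0 and 62.8 FPKM in CD20-positive libraries, and rose along each line.

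The other 5 members of lower glycolysis had log2 changes between -0.21 and 0.13. GAPDH, glyceraldehyde 3-phosphate dehydrogenase and the most abundant of all members, measured 681, 746 and 769 FPKM in CD20-negative and 791, 590.4 and 565 FPKM in CD20-positive libraries. PGAM1, phosphoglycerate mutase, measured 291, 253 and 281 FPKM against 303, 232 and 191 FPKM. In both genes the CD20-positive library of replicate 1 was the highest of the 6 and the other CD20-positive libraries were the lowest. Opposite-strand exons overlap 14.2% of the exon length of GAPDH. ENO1, the common enolase, had a log2 change of 0.04, PKM, pyruvate kinase, 0.09, and PGK1, phosphoglycerate kinase, 0.13. A gene-level value does not separate the M1 and M2 forms of pyruvate kinase, both of which come from PKM.

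Of the lactate genes, the export carrier had higher values and the dehydrogenases lower values in CD20-positive libraries, none past the threshold in either limma fit over all genes tested. SLC16A3 (ENSG00000141526, GRCh38 chromosome 17, 82228397 to 82261129, plus strand) encodes MCT4, the monocarboxylate transporter typical of lactate-exporting cells. It measured 36.3, 35.4 and 30.7 FPKM in CD20-negative and 51.9, 44.7 and 53.7 FPKM in CD20-positive libraries, with no overlap and with replicate 1 in the range of the others. The log2 change was 0.54 (SE 0.151, limma adjusted p = 0.359 without pairing and 0.0611 with it). In a paired limma fit restricted to the 4503 genes averaging 10 FPKM or more, where 21.2% of genes were called, it passed with adjusted p = 0.0102. That fit called 4 members higher (ENO2, PC, SLC16A3 and IDH2, against 9.93% of genes) and 1 lower (MPC2, against 11.3%). SLC16A3 also passed in paired limma fits with nuclear-FPKM, median-ratio or quantile scaling, with voom, and without replicate 1. It did not pass with scaling to total FPKM (log2 change 0.03, adjusted p = 0.885) or after length and GC correction (0.33, adjusted p = 0.118). Nor did it pass without replicate 2 (0.64, adjusted p = 0.140) or without replicate 3 (0.42, adjusted p = 0.684).

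LDHB (ENSG00000111716, GRCh38 chromosome 12, 21635342 to 21757857, minus strand) encodes the heart-type subunit of lactate dehydrogenase. It measured 368, 361 and 329.6 FPKM in CD20-negative and 324, 245 and 176 FPKM in CD20-positive libraries. All CD20-positive values were below all CD20-negative values, by little in replicate 1 and by more in replicate 3. The log2 change was -0.55 (SE 0.253, limma adjusted p = 0.572 without pairing and 0.186 with it). Without replicate 1 and without pairing it was -0.73 with limma adjusted p = 0.0154, where 13.8% of all genes passed. In other paired limma fits LDHB passed with scaling to total FPKM, with voom and without replicate 1. The change was smaller and did not pass with quantile scaling (-0.27, adjusted p = 0.376) or after length and GC correction (-0.37, adjusted p = 0.244). The same held without replicate 3 (-0.37, adjusted p = 0.979). An annotated same-strand gene, ENSG00000285854, shares 33.4% of the exon length of LDHB and was not among the deposited genes. LDHA, the muscle-type subunit, measured 349, 293 and 298 FPKM against 322, 240.2 and 211 FPKM, lower in each pair with overlapping groups (log2 change -0.30).

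Among genes of pyruvate entry and the pyruvate dehydrogenase complex, 8 of 11 had log2 changes below 0, with a median of -0.12, and 0 passed in either limma fit. MPC1 and MPC2 form the carrier that brings pyruvate into mitochondria. MPC1 measured 8.95, 7.18 and 7.78 FPKM in CD20-negative and 6.94, 5.89 and 4.99 FPKM in CD20-positive libraries, with no overlap (log2 change -0.38, SE 0.154, limma adjusted p = 0.526, paired 0.125). MPC2 measured 18.1, 9.71 and 11.7 FPKM against 13.0, 8.97 and 6.91 FPKM, lower in each pair with overlap (log2 change -0.41, paired adjusted p = 0.128). At the filter of 10 FPKM the paired adjusted p of MPC2 was 0.0455. Exons of a gene on the opposite strand, DCAF6, overlap 22.5% of the MPC2 exon length, and whether strand was used in counting is not given in the sources used here.

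All 5 subunit genes of the complex had log2 changes below 0, between -0.32 and -0.10, with overlapping sums of 126 ± 4.98 FPKM in CD20-negative and 112 ± 11.0 FPKM in CD20-positive libraries (SD, n = 3). DLAT, the acetyltransferase core, measured 13.8, 11.6 and 11.1 FPKM in CD20-negative and 10.8, 10.5 and 7.70 FPKM in CD20-positive libraries, without overlap. PDHB, the beta subunit of the first enzyme, measured 24.6, 20.1 and 20.1 FPKM against 20.4, 17.2 and 14.8 FPKM, with overlap. Neither passed (DLAT limma adjusted p = 0.622, PDHB 0.634), and their paired values were 0.204 and 0.232. PDHX, the binding protein, measured 15.2, 14.7 and 15.5 FPKM against 13.0, 14.2 and 13.2 FPKM, also without overlap. PDHA1, the alpha subunit and most abundant member here, measured 59.3, 68.7 and 60.9 FPKM against 63.4, 59.9 and 53.0 FPKM, with overlap. Opposite-strand exons of MAP3K15 cover 21.3% of its exon length.

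The kinases that switch the complex off were expressed at low levels, with log2 changes of either sign and 0 calls. PDK1, a hypoxia-induced kinase, measured 2.19, 3.83 and 5.44 FPKM in CD20-negative and 2.52, 5.37 and 5.73 FPKM in CD20-positive libraries, higher in each pair but with overlap (log2 change 0.20, SE 0.335). PDK2 and PDK3 had log2 changes of 0.04 and -0.05, and the phosphatase PDP1, which reverses their action, 0.01. Exons of SAMD14 on the opposite strand overlap 38.55% of the exon length of PDK2. Replicate 1 was low for PDK1 in both groups.

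In the citrate cycle, 8 of 11 members had log2 changes below 0, with a median of -0.17, and 0 passed in either limma fit. OGDH, the first enzyme of the 2-oxoglutarate dehydrogenase complex, went the other way and was the only 1 of the 11 without overlap and with higher values. It measured 50.5, 56.3 and 47.9 FPKM in CD20-negative and 70.9, 64.6 and 64.1 FPKM in CD20-positive libraries (log2 change 0.36, SE 0.147, limma adjusted p = 0.522, paired 0.201). CS, citrate synthase, which starts the cycle, measured 42.3, 46.2 and 44.8 FPKM against 41.9, 35.7 and 33.6 FPKM. Its groups did not overlap, by a margin of under 1 FPKM in replicate 1 (log2 change -0.26, SE 0.147). SUCLG2, a succinyl-CoA ligase subunit, measured 13.6, 12.2 and 15.5 FPKM against 12.3, 11.4 and 9.91 FPKM, with overlap (log2 change -0.27, SE 0.148).

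The remaining 8 citrate cycle members had overlapping groups and log2 changes between -0.35 and 0.09. SUCLG1, the shared alpha subunit of succinyl-CoA ligase, had the lowest at -0.35, and DLST, the core of the 2-oxoglutarate dehydrogenase complex, the highest at 0.09. IDH3A, IDH3B and IDH3G, the subunits of NAD-dependent isocitrate dehydrogenase, had -0.20, -0.15 and 0.05. FH, fumarase, had -0.11, MDH2, mitochondrial malate dehydrogenase, -0.19, and SUCLA2, the ATP-specific succinyl-CoA ligase subunit, -0.17. Opposite-strand exons overlap 38.9% of the annotated exon length of IDH3A. Such overlap was 10.2% for IDH3G and, in upper glycolysis, 13.3% for ALDOA and 10.1% for ALDOC.

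Among genes that feed the cycle or mirror it in the cytosol, PC rose in the paired comparison. PC (ENSG00000173599, GRCh38 chromosome 11, 66848233 to 66958376, minus strand) encodes pyruvate carboxylase, which makes oxaloacetate from pyruvate to refill the cycle. It measured 32.2, 50.3 and 41.6 FPKM in CD20-negative and 64.6, 66.1 and 71.6 FPKM in CD20-positive libraries, from 3583 to 6710 fragments. All CD20-positive values exceeded all CD20-negative values, with the CD20-positive libraries close to each other and the CD20-negative libraries spread out. The log2 change was 0.71 (SE 0.193 and limma adjusted p = 0.352 without pairing, SE 0.165 and adjusted p = 0.0286 with it). The paired call was lost without replicate 2 (log2 change 0.88, adjusted p = 0.102), without replicate 3 (log2 change 0.69, adjusted p = 0.180), with scaling to total FPKM (log2 change 0.21, adjusted p = 0.331) and after correction for length and GC content (log2 change 0.52, adjusted p = 0.0680). Exons of LRFN4 on the opposite strand overlap 10.5% of the exon length of PC.

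IDH2, the mitochondrial NADP-dependent isocitrate dehydrogenase, measured 26.3, 38.6 and 38.7 FPKM in CD20-negative and 47.4, 42.8 and 49.0 FPKM in CD20-positive libraries, without overlap. Its log2 change was 0.43 (SE 0.190, limma adjusted p = 0.550, paired 0.148, and 0.0452 in the paired fit at 10 FPKM). Its cytosolic counterpart IDH1 measured 50.4, 26.7 and 25.7 FPKM against 42.5, 23.0 and 19.0 FPKM, lower in each pair, with replicate 1 high in both groups (log2 change -0.29). MDH1, cytosolic malate dehydrogenase, had a log2 change of -0.21 and the malic enzyme gene ME2 -0.19, both lower in each pair with overlapping groups. ME2 measured 3.64, 2.67 and 2.64 FPKM in CD20-negative and 2.84, 2.34 and 2.24 FPKM in CD20-positive libraries.

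The 3 pentose phosphate members did not differ beyond their spread, and the CD20-positive library of replicate 1 was the highest of the 6 for each. TKT, transketolase, measured 123, 129 and 117 FPKM in CD20-negative and 164, 94.4 and 104 FPKM in CD20-positive libraries. PGD, an NADPH-producing enzyme of the oxidative branch, measured 86.8, 81.1 and 77.2 FPKM against 100.6, 73.8 and 64.3 FPKM. TALDO1, transaldolase, measured 61.8, 48.3 and 43.4 FPKM against 75.2, 37.2 and 35.3 FPKM. Their log2 changes were -0.07, -0.06 and -0.13, with limma adjusted p of 0.954, 0.952 and 0.932. By pair, the median log2 change of the 3 was 0.28 in replicate 1, -0.37 in replicate 2 and -0.26 in replicate 3, so the pairs went in different directions.

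Another 74 genes of the same pathways were read beside the members, of which 53 were tested. Without pairing 0 of them passed, and 4 had an unadjusted p under 0.05 (9.2% of all genes did). With the block 4 rose and 2 fell, beside 3.19% and 2.64% of all genes. Their median log2 change was 0.01. Those that rose were the glucose transporter genes SLC2A1 and SLC2A3, the regulatory enzyme gene PFKFB4, which sets the level of fructose 2,6-bisphosphate, and PCK1, the cytosolic phosphoenolpyruvate carboxykinase. Those that fell were RPIA, ribose 5-phosphate isomerase, and SDHB, the iron-sulphur subunit of succinate dehydrogenase.

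SLC2A1, encoding GLUT1, measured 28.1, 24.4 and 24.8 FPKM in CD20-negative and 42.4, 35.8 and 41.9 FPKM in CD20-positive libraries, without overlap (log2 change 0.61, limma adjusted p = 0.293 without pairing and 0.0291 with it). SLC2A3, encoding GLUT3, measured 12.7, 20.6 and 24.6 FPKM against 15.8, 37.2 and 41.4 FPKM. PFKFB4 measured 3.85, 10.1 and 10.8 FPKM against 6.83, 16.2 and 17.0 FPKM. SLC2A3 and PFKFB4 overlapped between groups, with replicate 1 low in both as for ENO2, and were higher in each pair (log2 changes 0.62 and 0.64, paired adjusted p = 0.0357 and 0.0167). PCK1 measured 1.33, 2.56 and 3.36 FPKM against 3.15, 4.34 and 5.73 FPKM (log2 change 0.68, paired limma adjusted p = 0.0148).

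RPIA measured 18.8, 17.9 and 16.0 FPKM in CD20-negative and 14.005, 11.8 and 9.75 FPKM in CD20-positive libraries, without overlap (log2 change -0.54, limma adjusted p = 0.383 without pairing and 0.0389 with it). SDHB measured 40.2, 26.5 and 25.2 FPKM against 34.1, 16.4 and 13.5 FPKM, lower in each pair with overlap (log2 change -0.58, paired adjusted p = 0.0483). The other subunits of succinate dehydrogenase did not share 1 direction. SDHC and SDHD, the membrane anchors, had log2 changes of -0.37 and -0.55, and SDHA, the flavoprotein, had 0.43 with 29.1, 37.2 and 33.2 FPKM against 44.7, 43.5 and 46.6 FPKM and no overlap. None of these 3 passed in either fit at 1 FPKM, and in the paired fit at 10 FPKM SDHD passed lower (adjusted p = 0.00328) and SDHA higher (0.0455). Without replicate 1 and without pairing, SDHC (adjusted p = 0.0348) and SDHD (0.0163) passed, both lower. BSG, the chaperone of MCT1 and MCT4, had a log2 change of 0.36 without overlap between groups. All 6 paired calls among these related genes were lost without replicate 2 and after correction for transcript length and GC content, where their adjusted p ranged from 0.0559 for PCK1 to 0.122 for SDHB. After that correction the log2 change was 0.52 for SLC2A1, 0.63 for SLC2A3, 0.52 for PFKFB4, 0.66 for PCK1, -0.42 for RPIA and -0.39 for SDHB. Without replicate 2 these were 0.66, 0.52, 0.65, 0.73, -0.53 and -0.54. Without replicate 3 PCK1 passed (adjusted p = 0.0371) and the other 5 did not, with log2 changes of 0.55 for SLC2A1, 0.56 for SLC2A3, 0.66 for PFKFB4, -0.48 for RPIA and -0.45 for SDHB. With scaling to total FPKM, which moved the median of all genes to -0.41, the 4 rises were lost at log2 changes of 0.11 for SLC2A1 (adjusted p = 0.616), 0.13 for SLC2A3 (0.615), 0.19 for PFKFB4 (0.442) and 0.30 for PCK1 (0.228).

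Ratios of isozymes or partners within a library do not move with a single scale factor per library. Of 18 such log2 ratios, 3 did not overlap between groups, each with an exact permutation p of 0.1, the smallest that 3 against 3 allows, and 0.6 after Benjamini-Hochberg adjustment. The ratio of SLC16A3 to SLC16A1 was 1 of these and rests on the pseudocount, since SLC16A1 was at or under its floor. LDHA made up 48.7, 44.8 and 47.4% of the LDHA and LDHB total in CD20-negative and 49.8, 49.5 and 54.4% in CD20-positive libraries. The log2 ratio of LDHA to LDHB averaged -0.17 ± 0.114 in the CD20-negative group and 0.07 ± 0.158 in the CD20-positive group (SD, n = 3). PFKM made up 26.9, 27.6 and 28.2% of the 3 phosphofructokinase genes against 23.0, 24.7 and 24.6%, and its log2 ratio to PFKL was -0.05 ± 0.0461 against -0.30 ± 0.0267.

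The remaining 15 ratios overlapped. ENO2 made up 1.79, 5.04 and 5.53% of the ENO1 and ENO2 total in CD20-negative and 2.74, 10.5 and 14.7% in CD20-positive libraries, higher in each pair. That total leaves out the related gene ENO3, at 52.8, 72.0 and 61.5 FPKM against 74.3, 81.8 and 87.8 FPKM. ENO3 did not overlap between groups (log2 change 0.39, limma adjusted p = 0.554 without pairing and 0.188 with it). The IDH2 share of the IDH1 and IDH2 total was 34.3, 59.1 and 60.1% against 52.7, 65.0 and 72.1%, also higher in each pair. The ratio of HK2 to HK1 was lowest in replicate 1 of both groups, with HK2 at 35.3, 51.2 and 57.9% of the pair in CD20-negative and 29.4, 57.4 and 61.0% in CD20-positive libraries. Without the CD20-positive library of replicate 1, 10 of the 18 ratios did not overlap, and without that of replicate 2, 5 did not. Leaving out a library can only keep or raise such a count, so no conclusion is drawn from it.

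**Figure D4:**
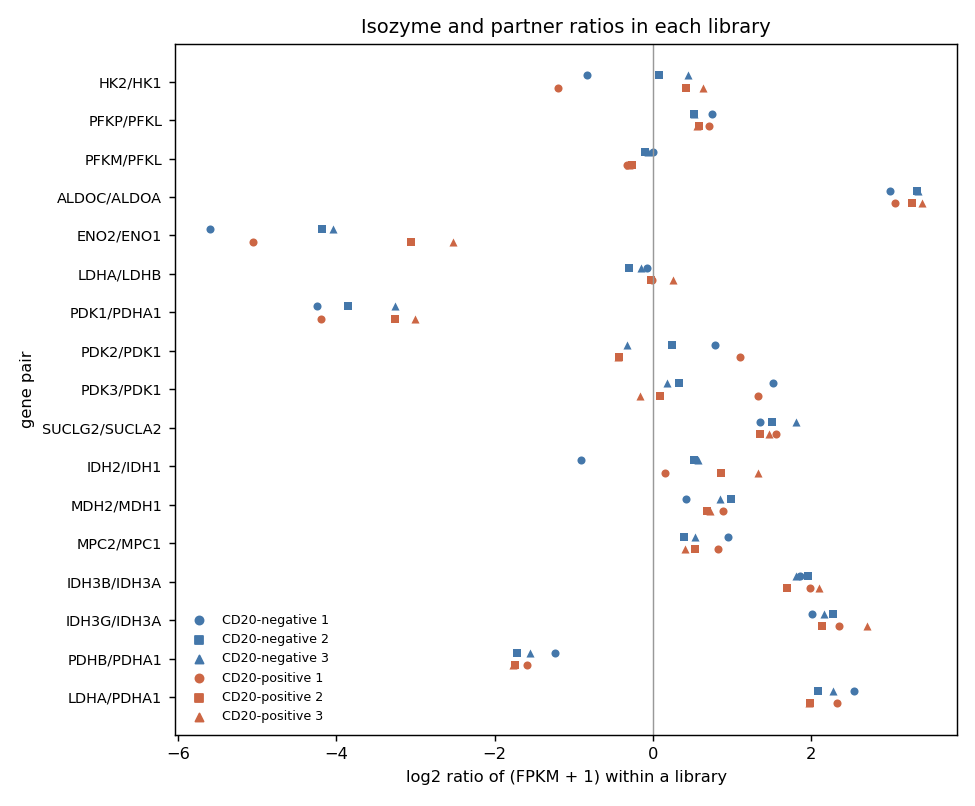
Log2 ratio of FPKM + 1 for 17 pairs of isozymes or partners within each library, with the symbol giving the replicate and the colour the group, and without the ratio to SLC16A1, which was at or under its floor. The groups separate for PFKM to PFKL and for LDHA to LDHB, and replicate 1 lies apart for ENO2 to ENO1, HK2 to HK1 and IDH2 to IDH1.

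Replicate 1 differed from replicates 2 and 3 in a subset of members, in the same direction in both fractions. Its level divided by the mean of the other replicates came to 0.306 (CD20-negative) and 0.232 (CD20-positive) for ENO2, 0.509 and 0.343 for HK2, and 0.473 and 0.455 for PDK1. The related genes SLC2A3 and PFKFB4 had 0.561 and 0.403, and 0.369 and 0.411. Other genes were high in replicate 1, with 1.92 and 2.02 for IDH1, 1.70 and 1.64 for MPC2, and 1.35 and 2.07 for TALDO1. The related gene BPGM, bisphosphoglycerate mutase, stood furthest apart of the members and related genes compared, at 4.14 and 5.58. The abundant enzymes PGK1 and ENO1 had 0.900 and 0.737, and 0.937 and 1.18. Without both libraries of replicate 1, the unpaired limma fit called 4 members higher (HK2, ENO2, SLC16A3 and PC, against 6.33% of all genes) and 1 lower (LDHB, against 7.45%).

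The 17 members listed as hypoxia-induced had a median log2 change of 0.13, with 13 above 0, and the other 31 tested members had -0.15, with 8 above 0. The 17 are all glycolytic members except PFKM, with LDHA, PDK1 and SLC16A3. These values therefore largely repeat those of the glycolytic members and are not a separate result. In the paired limma fit, 1 of the 17 rose (ENO2) and 1 of the 31 (PC), beside 3.19% of all genes. The median of the 17 by pair was 0.26, 0.05 and 0.03.

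Changes of the members moved with transcript length and GC content. Across the 48 tested members, which share the same libraries, the Spearman correlation of the log2 change was 0.45 with the length of the longest annotated transcript and 0.53 with its GC content. Across 13135 genes these were 0.15 and 0.26. The 24 longer members, from 2838 bases up, had a median log2 change of 0.05 with 14 above 0, and the 24 shorter members had -0.17 with 7 above 0. After a per-library correction for length and GC content, the median of all members was -0.06. It was 0.07 for the glycolytic members and -0.11 for those of pyruvate entry and the citrate cycle. With that correction the paired limma fit called 0 of 48 members and 47 of 13135 genes (0.358%), 35 higher (0.266%) and 12 lower (0.0914%). The part of length and GC content in the results was not tested otherwise.

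**Figure D5:**
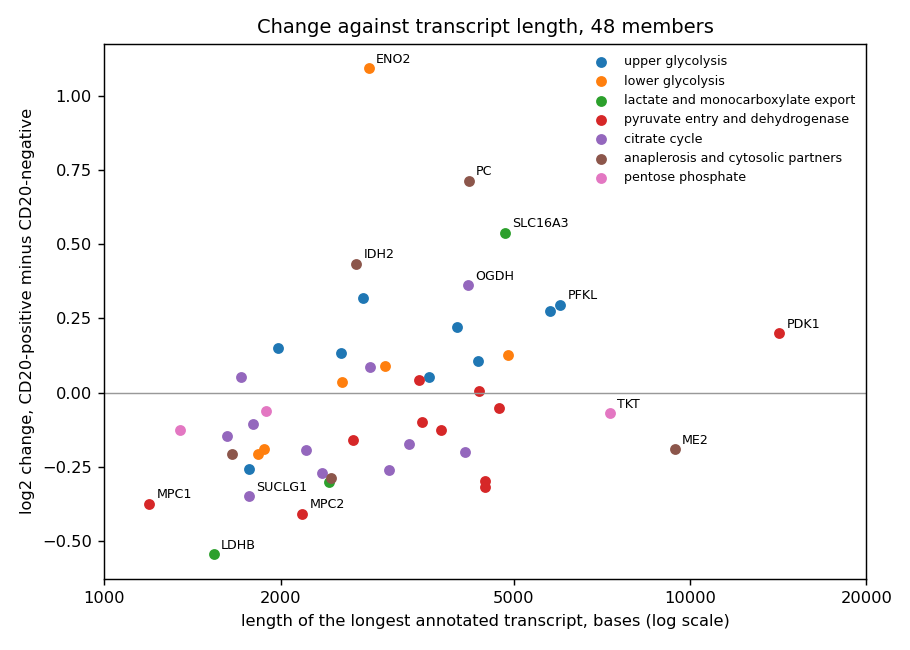
Log2 change of FPKM + 1, CD20-positive minus CD20-negative, against the length of the longest annotated transcript in bases (log axis) for the 48 tested members, coloured by pathway step. The shorter members LDHB and MPC1 lie at -0.55 and -0.38, and the longer SLC16A3 and OGDH at 0.54 and 0.36. Others go against this, with the shorter ENO2 and IDH2 at 1.09 and 0.43 and the longer TKT and ME2 at -0.07 and -0.19. The Spearman correlation was 0.45 across the 48 members and 0.15 across 13135 genes.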

How the data were processed

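The deposited values are FPKM that the authors computed, as read from the values: multiplied by GENCODE 29 exon length, 98.1 to 98.6% of low values (up to 20 reads) were whole multiples of a step per library (tolerance 0.02 reads). Those multiples were taken as recovered fragments. The submitters' processing notes name HISAT2, featureCounts 1.5.0, DESeq2 and the GRCh38 build, with settings not given in the sources used here. Among the identifiers, 58275 matched GENCODE 29 and 120 did not. A DESeq2 or edgeR test was not run here.

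Genes averaging 1 FPKM or more were tested on log2(FPKM + 1) with limma 3.58.1 (R 4.3.3, trend and robust prior), unpaired and with the replicate number as a block, with Benjamini-Hochberg adjusted p-values called under 0.05. A fold change on this scale understates the change of low genes. The labels give replicate numbers but do not say that a number is a shared culture. Same-numbered libraries deviated together from their group means (correlations 0.67, 0.24 and 0.51 for replicates 1, 2 and 3). The numbers were treated as pairs from these same data. Replicate 2 of the CD20-negative group correlated better with CD20-positive replicate 3 (0.43), so the pairing of replicates 2 and 3 is not settled. Ratios were compared by two-sided exact permutation tests. The members, lists and rules for naming genes were chosen with earlier results of these data known. Values in every library were given for members called in either fit, the most abundant member of each step, up to 3 members of each step with the smallest unpaired p and both genes of ratios that did not overlap, and MPC2, HK2, PDHX, PDK1 and IDH1 were added after their values were seen. The limma fits were checked on simulated data with independent noise and no replicate effect, a check that does not bear on the pairing. Alternatives covered the pseudocount, filter, scaling, prior, block, voom, libraries left out and, added after the data were seen, length and GC correction and removal of replicate 1. RefSeq windows are of the GRCh38.p14 build.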

Additional observations from a re-analysis of the deposited data

How the results depend on the processing

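Without the block, the count of 0 called members (limma) held under the other pseudocounts, filters, prior, voom, the median-ratio, quantile and nuclear-FPKM scalings, the length and GC correction, and with any single library left out. It became 2 with the replicate block, 12 (all lower) with scaling to total FPKM, and 5 without both libraries of replicate 1. With the block, the 2 called members became 5 at the 10 FPKM filter, 26 with scaling to total FPKM (1 higher, 25 lower), 4 with nuclear FPKM, 5 with voom and 0 with the length and GC correction, and 3 with the median-ratio and quantile scalings. Leaving out a pair gave 0 to 6 members: 6 without replicate 1, 0 without replicate 2 (1 gene of 13155 was then called) and 1 without replicate 3 (331 genes). The count of 0 called related genes became 6 with the replicate block, 9 with total FPKM and 10 without replicate 1. The 6 paired calls (4 higher, 2 lower) became 21 with total FPKM (0 higher, 21 lower, so the 4 rises were lost) and 0 with the length and GC correction, and 0 to 10 with a pair left out. Non-overlapping ratios numbered 3, and 3 to 10 with 1 library left out, a step that cannot lower the count. Under scaling to total FPKM 18 of 48 members turned sign, under quantile scaling 5 and under nuclear FPKM 4, while ENO2 and PC stayed above 0. Among the members, depth limited SLC16A1 and PCK2, with at most 3 and 18 fragments in a library.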
